A study of Mus musculus with 8 samples.

Results

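In cultured mouse calvarial osteoblasts given parathyroid hormone (PTH) for 24 hours, 61 genes stood at under 1/3 of their level in vehicle-treated cultures. They met a count minimum with vehicle only, and 19 of them had under 100 counts in every PTH sample. These genes are described here. The 61 genes were chosen by their own levels in these samples: a gene needed at least 100 counts in each of 4 vehicle samples, and its highest level among 4 PTH samples had to lie under 1/3 of its lowest vehicle level, with levels in CPM, the count divided by the total of the sample and scaled up in the usual way. Of 47704 entries with a symbol, 12423 had the counts in vehicle, so the 61 make up 0.491% of the genes that could be chosen. Dkk1 and Dlx3 also met the rule and were left out of the list. The mirror of the rule took in 255 genes. It asked for at least 100 counts in each PTH sample and a lowest PTH level over 3 times the highest vehicle level. Those genes were thus not limited to the 12423 with the counts in vehicle.

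Osteoblasts were isolated from the skullcap of newborn mice, differentiated for 7 days, starved of serum, and given either PTH, as its amino-terminal fragment, or vehicle for 24 hours. Each treatment had 4 samples, numbered 1 to 4, and no other treatment or genotype was part of the comparison. The sample labels name the 7 days of culture adipogenic differentiation, whereas the methods of the study describe β-glycerol phosphate and ascorbic acid, the usual osteogenic supplements. Nothing states whether the 4 samples of a treatment came from separate preparations of cells, so the error values measure the spread between these samples, which may be technical.

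PTH is released by the parathyroid glands when blood calcium falls, and osteoblasts read it through the G protein–coupled receptor PTH1R, which raises cAMP and activates protein kinase A. In bone, the hormone is known both for stimulating formation when it is given intermittently and for raising RANKL, the osteoclast-inducing cytokine encoded by Tnfsf11. Among the genes that PTH is known to lower is Sost, which encodes the Wnt antagonist sclerostin of osteocytes.

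Total counts per sample lay between 33605610 and 56090654 with PTH and between 41618108 and 46757836 with vehicle. Tnfsf11, a known PTH target, stood at 1.69, 1.03, 1.29 and 1.9 CPM in the vehicle samples and at 144, 116, 112 and 115 CPM in the PTH samples, so every library went with its label. Of 14 osteoblast markers, such as Runx2, Col1a1 and Alpl, the median vehicle level was 261 CPM, against 8.96 CPM for the adipocyte markers. The markers of macrophages summed to between 1230 and 2041 CPM with vehicle and between 1672 and 2284 CPM with PTH, and 3 of 15 were higher with PTH. Of the other lists, 4 of 14 osteoblast markers were lower, 1 of 10 adipocyte markers was lower and 1 higher, 1 of 7 endothelial markers was lower and 2 higher, 1 of 6 skeletal muscle markers was lower and 2 higher, and 2 of 10 chondrocyte and 1 of 9 neural and glial markers were higher. None of the 61 genes was a member of any of the 8 marker lists. As the 61 are 0.491% of the genes they were chosen from, lists this short would mostly hold none. In RNA from whole cultures, fewer cells of a type and less RNA per cell cannot be told apart.

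The summed level of the 61 genes was 1990, 2026, 1994 and 1943 CPM in vehicle samples 1 to 4 and 420.4, 425.4, 436.9 and 456 CPM in PTH samples 1 to 4. The 4 sums of each treatment lay close together, with a wide gap between treatments that the rule itself fixed. The ratio of the mean vehicle CPM to the mean PTH CPM ran from 3.29 for Nr1d1 to 16.1 for Rnf152 with a median of 4.80, and it was over 4 in 47 genes, over 5 in 28, over 8 in 6 and over 10 in 4. In the edgeR fit, which scales the libraries by TMM, the log2 fold changes of the 61 ran from -3.85 to -1.59 with a median of -2.13, where the median over all 16736 genes tested was -0.00081. All 61 passed the low-count filter and were called lower there, in a comparison that called 22.5% of the tested genes lower and 23.3% higher at an adjusted p under 0.05. Since the rule used these values, nothing was read from that count. CPM from the totals exaggerate each fall by 0.13 on the log2 scale relative to TMM, and 42 of the 61 also met the rule on TMM-scaled CPM.

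**Figure D1:**
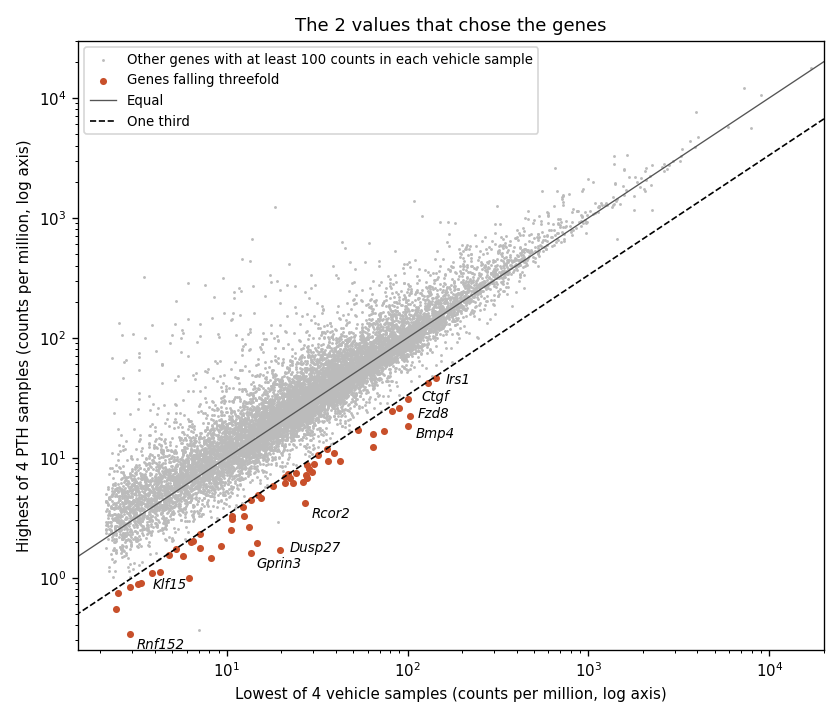
Lowest vehicle level against highest PTH level in CPM, both on log axes, for each of the 12423 genes with at least 100 counts in every vehicle sample. The 61 chosen genes (red) lie below the dashed line at 1/3, most of them near it, with Dusp27, Rnf152, Gprin3 and Adm farthest below, and the 2 grey points below the line are Dkk1 and Dlx3.

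The edge of the list was not a gap in the data. Just inside, the highest PTH level was 0.332 of the lowest vehicle level for Nr1d1, 0.332 for Runx1t1 and 0.331 for Srl. Just outside, it was 0.337 for Kctd14, 0.339 for Eepd1 and 0.343 for Mef2c, the last a transcription factor of osteoblasts and osteocytes with 93.7 CPM in vehicle and 23.8 CPM in PTH on average. The genes on either side of the line differed little in this ratio.

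**Figure D2:**
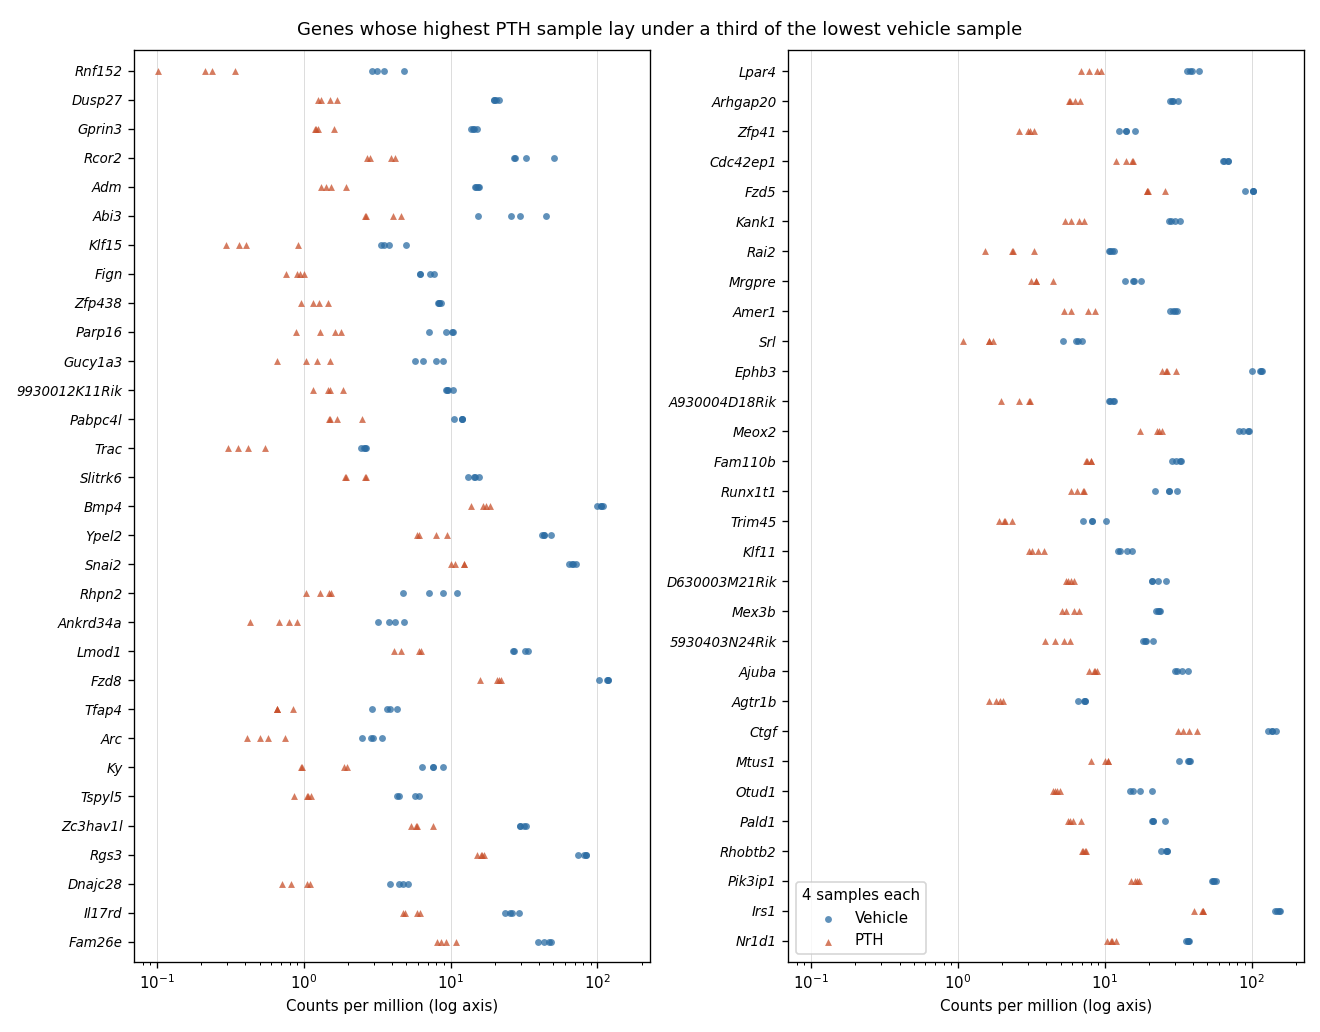
CPM on a log axis in each of 4 vehicle samples (blue circles) and 4 PTH samples (red triangles) for the 61 genes, ordered by the ratio of mean vehicle to mean PTH level from the top left to the bottom right. The groups are apart in every gene because the rule required it, and the points of a group are spread most for Rnf152, Abi3, Klf15 and Rhpn2.

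Promoter windows from RefSeq (GRCm38.p6, 250 bases before to 50 after the annotated start) could be matched to 43 of the 61 genes and to 9460 of the 12423. The 4 printed here, the 250 bases before the start, 5′ to 3′ on the strand of the gene, belong to a target of YAP/TAZ, a smooth muscle gene, a Krüppel-like factor and the bone morphogenetic protein of the list, and capitals mark every match on either strand to any of 8 short motifs searched. They are Ajuba at chr14:54577662-54577911 on the minus strand, Lmod1 at chr1:135324563-135324812 on the plus strand, Klf15 at chr6:90462326-90462575 on the plus strand and Bmp4 at chr14:46390670-46390919 on the minus strand.
Ajuba: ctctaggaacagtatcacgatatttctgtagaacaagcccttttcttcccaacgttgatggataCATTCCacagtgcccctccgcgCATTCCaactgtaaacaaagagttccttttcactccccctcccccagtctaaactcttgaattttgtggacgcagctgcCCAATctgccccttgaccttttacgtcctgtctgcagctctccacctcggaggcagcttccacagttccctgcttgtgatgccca
Lmod1: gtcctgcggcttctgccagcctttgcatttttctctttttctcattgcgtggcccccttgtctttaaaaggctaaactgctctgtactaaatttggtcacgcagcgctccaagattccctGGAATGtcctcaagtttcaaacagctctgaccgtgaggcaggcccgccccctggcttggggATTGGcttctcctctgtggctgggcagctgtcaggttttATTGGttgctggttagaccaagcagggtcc
Klf15: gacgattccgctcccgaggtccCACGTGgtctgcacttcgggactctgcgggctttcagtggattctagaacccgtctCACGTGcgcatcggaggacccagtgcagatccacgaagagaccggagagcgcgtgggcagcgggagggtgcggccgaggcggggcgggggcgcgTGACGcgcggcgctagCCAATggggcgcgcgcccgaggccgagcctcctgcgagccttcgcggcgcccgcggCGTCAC
Bmp4: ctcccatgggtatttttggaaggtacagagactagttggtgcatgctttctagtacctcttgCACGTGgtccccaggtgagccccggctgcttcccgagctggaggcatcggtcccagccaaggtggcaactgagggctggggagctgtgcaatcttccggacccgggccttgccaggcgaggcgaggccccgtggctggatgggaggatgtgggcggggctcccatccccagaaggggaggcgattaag
The printed windows were not picked by a rule, and Ctgf, the other YAP/TAZ target among the chosen genes, had no window. The Ajuba window held GGAATG, the core bound by TEAD factors, in 2 places as its reverse complement, and the Lmod1 window held it once. The Klf15 window held the E-box CACGTG in 3 places, the last of which crosses the annotated start, and the Bmp4 window held it once.

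Over the 43 windows of 300 bases, TGACG, the core of a cAMP response element, was found in 6 (14.0%), against 32.9% of the 9460 windows and 39.8% of the 186 windows of genes that passed the mirror rule. Those 6 were the windows of Klf15, Otud1, Mex3b, Ephb3, Dnajc28 and Irs1. The E-box CACGTG was in 9 (20.9%) against 10.3% and 12.4%, and GGAATG in 8 (18.6%) against 11.5% and 11.3%. For the CCAAT box the shares were 30.2%, 38.5% and 38.2%, for the TATAAA box 11.6%, 6.73% and 15.6%, for the RUNX core TGTGGT 6.98%, 11.8% and 9.14%, and for the AP-1 site TGANTCA 4.65%, 4.48% and 9.14%. No window of the 43 held a CArG box, the site of serum response factor, which 1.24% of the 9460 held. All motifs were searched on both strands, and a CACGTG may overlap a TGACG, as it does in Klf15. The ratio of observed to expected CpG had a median of 0.626 in the 43 windows, 0.783 in the 9460 and 0.725 in the rising genes, at a median GC content of 64.0%, 61.7% and 63.5%. These are descriptions of letters in a window, and binding was not measured.

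Of the 61, 3 encode secreted factors: the bone morphogenetic protein Bmp4, the vasodilator peptide adrenomedullin (Adm) and the matricellular protein connective tissue growth factor (Ctgf). Bmp4, at chr14:46383520-46390669, stood at 105, 109, 106 and 99.9 CPM in the vehicle samples and at 16.6, 13.8, 18.4 and 17.3 CPM in the PTH samples. The vehicle mean of 105 ± 3.76 CPM (SD, n = 4) was 6.35 times the PTH mean of 16.5 ± 2.0 CPM (SD, n = 4), with vehicle sample 4 and PTH sample 2 the lowest of their groups. Adm was low to begin with, at 15, 15.7, 14.7 and 15.4 CPM with vehicle, and was left with 1.53, 1.31, 1.95 and 1.41 CPM with PTH. Its vehicle mean was 9.8 times its PTH mean, the deepest fall of the secreted factors. Ctgf had 147, 137, 137 and 130.0 CPM with vehicle and 33.8, 31.7, 37.2 and 42.3 CPM with PTH, a ratio of means of 3.79, with PTH sample 4 the highest of its group. Per kilobase of exon, Ctgf (48.1 CPM per kb) and Bmp4 (46.7 CPM per kb) had the highest vehicle levels of the 61 genes, and Adm had 9.38 CPM per kb.

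Bmp4 was the one member among 40 BMP ligands, receptors, SMADs, antagonists and targets, all of which were tested. Of these, 14 (35.0%) were lower with PTH, Bmp4 included, and 15 were higher, and the median log2 fold change of the 40 was -0.05. Bmp8a fell most among the others, with a log2 fold change of -1.41 ± 0.22 (SE, quasi-likelihood test of edgeR, Benjamini-Hochberg adjusted p = 0.000221), and the joint morphogen Gdf5 rose most in log2 terms, by 2.16 ± 0.60 (adjusted p = 0.0109 in the same fit), from a vehicle mean of 0.221 CPM. The fitted log2 fold change of Bmp4 was -2.54 ± 0.10 (SE), the lowest of the list, a place that follows largely from how it was chosen.

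**Figure D3:**
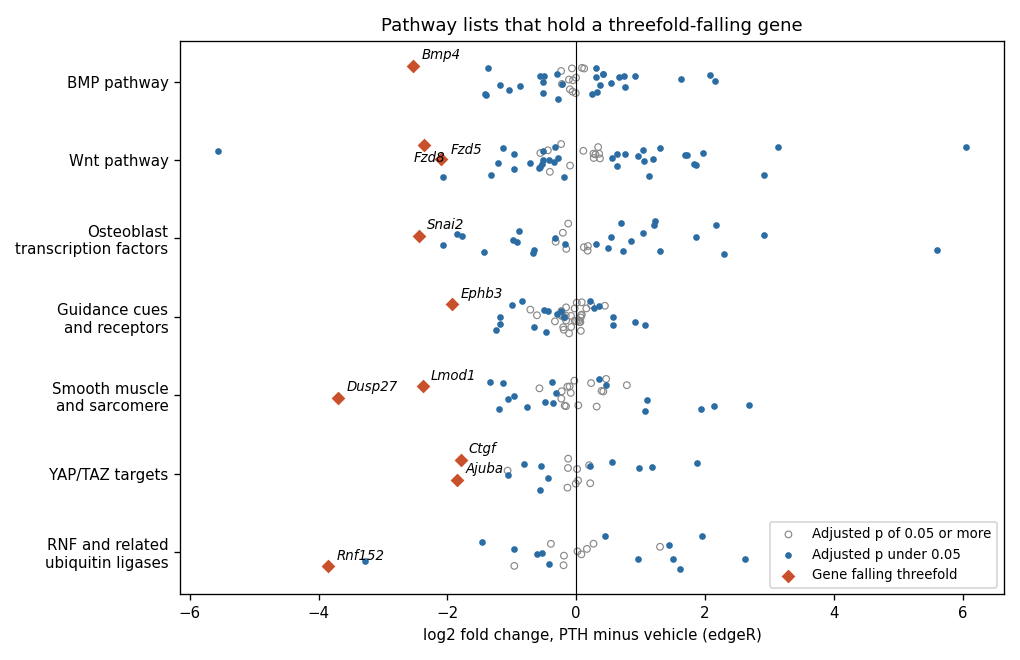
log2 fold change of PTH over vehicle from edgeR (x axis) for each tested gene of 7 lists (y axis, points moved up or down at random within a list so as not to overlap). Red diamonds are the chosen genes, filled blue circles other genes with an adjusted p under 0.05 and open circles the rest. The chosen genes sit at the left of each list because the rule picked them for a deep fall in these same samples. Other genes of each list lie on both sides of 0, and the blue point far left in the Wnt list is Dkk1.

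Receptors or other membrane proteins are encoded by 10 members, and 2 of them are Frizzleds, the receptors of Wnt ligands. Fzd8, a gene of a single exon, stood at 118, 118, 115 and 103 CPM with vehicle and at 21.4, 15.9, 20.8 and 22.1 CPM with PTH. Fzd5 stood at 89.6, 103, 102 and 102 CPM with vehicle and at 19.3, 19.4, 19.8 and 25.9 CPM with PTH. The ratios of means were 5.65 and 4.69, and in Fzd5 vehicle sample 1 was the lowest and PTH sample 4 the highest of its group. Per kilobase of exon the vehicle levels were 19 CPM per kb for Fzd8 and 14.3 CPM per kb for Fzd5. Of 50 tested genes of Wnt ligands, receptors, antagonists and feedback targets, 20 (40.0%) were lower and 18 higher, with a median log2 fold change of 0.01, and the fitted values of the pair were -2.37 ± 0.11 and -2.10 ± 0.10 (SE). Wnt4, a ligand, rose most in that list, by 6.06 ± 0.20 on the log2 scale (SE, edgeR, adjusted p = 2.71e-10), from 0.529 to 32.3 CPM on average. Dkk1, the one gene of the list with a deeper fall than the Frizzleds, is left out by the rule. Amer1, which binds APC and acts in the Wnt pathway inside the cell but was not on that list, went from 29.5 ± 1.4 to 6.86 ± 1.54 CPM (SD, n = 4) and is named here after its values were seen.

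Ephb3, a receptor tyrosine kinase that binds ephrin-B ligands on neighbouring cells, stood at 114, 117, 116 and 100.1 CPM with vehicle and at 26, 24.7, 26.5 and 30.7 CPM with PTH. The vehicle mean was 4.14 times the PTH mean. Vehicle sample 4 was the lowest and PTH sample 4 the highest, so that the treatments came closest in sample 4 of each. Ephb3 was the one member among 50 tested guidance cues and receptors, of which 13 (26.0%) were lower and 7 higher, with a median log2 fold change of -0.13. Beside it, Rgma fell by 1.24 ± 0.08 and Sema4c rose by 1.06 ± 0.08 on the log2 scale (SE, edgeR, adjusted p = 1.25e-07 and 5.37e-07).

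A further 6 receptor and membrane genes are named by role after their values were seen. Lpar4, a receptor of lysophosphatidic acid, had 39.3, 43.5, 38 and 36.5 CPM with vehicle and 6.9, 7.8, 9.38 and 8.8 CPM with PTH. Il17rd, also known as Sef and an inhibitor of FGF signaling, had 29.4, 26.3, 25.6 and 23.3 CPM with vehicle and 4.71, 6.16, 5.92 and 4.87 CPM with PTH. These are ratios of means of 4.79 and 4.83, with no sample far from its group. Agtr1b, an angiotensin II receptor, went from 7.1 ± 0.370 to 1.85 ± 0.163 CPM, and Mrgpre, an orphan receptor, from 15.7 ± 1.67 to 3.6 ± 0.598 CPM (SD, n = 4). The leucine-rich repeat protein Slitrk6 went from 14.4 ± 0.958 to 2.27 ± 0.411 CPM and the channel-family protein Fam26e from 44.2 ± 3.88 to 9.23 ± 1.25 CPM (SD, n = 4). In all 4 genes the SDs were small beside the difference between the means, which the rule largely fixed.

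Trac, the constant segment of the T cell receptor alpha chain, was the member with the lowest vehicle level in CPM, with 2.43, 2.67, 2.62 and 2.59 CPM with vehicle and 0.303, 0.417, 0.354 and 0.546 CPM with PTH. The counts behind these were over 100 in each vehicle sample. Cd3e, Cd3d, Cd3g, Cd8a, Trbc1 and Trbc2, which T cells express together with it, had 0 counts in all 8 samples. Cd247 had at most 7 counts, Lck at most 15, Zap70 between 12 and 50 and Cd4 between 48 and 184. Ptprc, the gene of the leukocyte antigen CD45, had between 408 and 885 counts with vehicle and between 600 and 798 counts with PTH. Trac and these genes were looked up after the values were seen.

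Transcription or chromatin regulators make up 11 of the 61, and their ratios of means ran from 3.29 to 10.1. Snai2, which encodes the zinc-finger repressor Slug of mesenchymal cells, stood at 64.3, 71.7, 67.3 and 68 CPM with vehicle and at 10.8, 10.1, 12.3 and 12.3 CPM with PTH. Meox2, a homeobox gene of mesoderm, stood at 81.9, 96.1, 94.4 and 88 CPM with vehicle and at 17.3, 22.6, 23.4 and 24.6 CPM with PTH. Both were well expressed, at 33.5 and 38.2 CPM per kb of exon in vehicle, among the 4 highest of the 61 on that scale, and the vehicle means were 5.96 and 4.1 times the PTH means. Snai2 was the one member among 34 tested osteoblast transcription factors, of which 12 (35.3%) were lower and 15 higher with a median log2 fold change of 0.15, and its fitted value was -2.45 ± 0.08 (SE). In the same list Tcf7, a mediator of Wnt signaling, fell by 2.07 ± 0.21 and the vitamin D receptor gene Vdr rose by 5.60 ± 0.18 on the log2 scale (SE, edgeR, adjusted p = 6.42e-06 and 2.71e-10).

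Rcor2, a corepressor that works with the demethylase LSD1, had the deepest fall of the regulators, from 27, 27.5, 32.8 and 50.4 CPM with vehicle to 2.71, 4.17, 3.92 and 2.84 CPM with PTH. Its vehicle samples were uneven, with sample 4 1.87 times the lowest. Klf15, a Krüppel-like factor of metabolic control whose window is printed above, had 4.94, 3.53, 3.83 and 3.36 CPM with vehicle and 0.909, 0.298, 0.404 and 0.364 CPM with PTH. PTH sample 1 was 3.06 times the lowest PTH sample, and leaving out 1 library moved the fitted log2 fold change of Klf15 between -3.34 and -2.60. Its relative Klf11, named after its values were seen, went from 13.6 ± 1.35 to 3.41 ± 0.365 CPM (SD, n = 4), a ratio of 3.98. Zfp438, a zinc-finger gene, had 8.28, 8.19, 8.56 and 8.28 CPM with vehicle and 1.27, 1.46, 1.16 and 0.955 CPM with PTH. Its vehicle samples were nearly equal, with an SD of 0.161 CPM.

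The remaining regulators include those nearest to the edge of the rule. Nr1d1, the clock repressor Rev-erbα, stood at 36.6, 35.7, 36.8 and 37.3 CPM with vehicle and at 10.4, 11.9, 11.1 and 11.1 CPM with PTH, the smallest ratio of the 61 at 3.29 and the most even vehicle samples. Runx1t1, the corepressor ETO, had 27.2, 30.8, 27.6 and 21.9 CPM with vehicle and 7.08, 5.92, 7.25 and 6.48 CPM with PTH, a ratio of 4.02. Nr1d1 shares 263 bases of exon with Thra on the opposite strand, which had a log2 fold change of -0.27. Tfap4, Zfp41 and Rai2, named after their values were seen, had ratios of means of 5.28, 4.71 and 4.63.

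Proteins of the cytoskeleton, its regulators or muscle proteins are encoded by 13 members. Dusp27, an atypical phosphatase relative needed for the order of muscle myofibrils, stood at 21.2, 20.5, 19.9 and 19.6 CPM with vehicle and at 1.32, 1.7, 1.52 and 1.25 CPM with PTH. Its mean fell from 20.3 ± 0.694 to 1.45 ± 0.201 CPM (SD, n = 4), a ratio of 14.1 that only Rnf152 exceeded among the 61. Lmod1, the leiomodin that nucleates actin in smooth muscle, had 33.6, 32.2, 26.8 and 26.5 CPM with vehicle and 4.14, 6.07, 6.27 and 4.59 CPM with PTH. Vehicle samples 1 and 2 were higher than 3 and 4, and the ratio of means was 5.66. Srl, sarcalumenin of the sarcoplasmic reticulum, had 7.02, 6.61, 5.23 and 6.42 CPM with vehicle and 1.73, 1.64, 1.09 and 1.61 CPM with PTH, a ratio of 4.17. Of 35 tested smooth muscle and sarcomere genes, 12 (34.3%) were lower, Dusp27 and Lmod1 among them, and 7 were higher, with a median log2 fold change of -0.14. The smoothelin gene Smtn fell by 1.34 ± 0.07 and the synaptopodin-2 gene Synpo2 rose by 2.69 ± 0.09 (log2, SE, edgeR, adjusted p = 1.18e-08 and 3.15e-10).

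Ajuba, a LIM-domain protein of cell junctions that restrains the Hippo kinases, had 36.8, 33.8, 31.3 and 30.2 CPM with vehicle and 8.41, 8.54, 7.81 and 8.8 CPM with PTH. The PTH samples were nearly equal and the ratio of means was 3.93. Ajuba and Ctgf were the members among 21 tested targets and partners of the coactivators YAP and TAZ, of which 7 (33.3%) were lower and 5 higher with a median log2 fold change of -0.12. The fitted values were -1.85 ± 0.09 for Ajuba and -1.79 ± 0.09 for Ctgf (SE). The muscle ankyrin-repeat gene Ankrd1 fell by 1.05 ± 0.19 and the stress gene Gadd45b rose by 1.88 ± 0.07 on the log2 scale (SE, edgeR, adjusted p = 0.000729 and 4.53e-10).

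Fign, which encodes the microtubule-severing ATPase fidgetin, had 6.24, 6.2, 7.21 and 7.7 CPM with vehicle and 0.945, 0.893, 0.758 and 1.0 CPM with PTH, a ratio of means of 7.6. Abi3, a subunit of the WAVE complex that drives branched actin, had 25.7, 15.4, 44.8 and 29.5 CPM with vehicle and 2.64, 4.58, 2.63 and 4.05 CPM with PTH. Its vehicle samples spanned 2.91-fold, the widest vehicle range of the 61. Abi3 overlaps Zfp652 by 2913 bases of exon on the opposite strand and shares near-identical stretches with Phospho1 and Zfp652, so its counts are uncertain. Phospho1, the phosphatase of mineralizing vesicles, had 135.9, 160.0, 174.2 and 417.5 CPM with vehicle and 48.4, 40.8, 48.4 and 48.2 CPM with PTH. Zfp652 had a log2 fold change of -0.71. How many of the Abi3 counts came from reads of these neighbours was not tested.

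The rest of this group is named after its values were seen. Cdc42ep1, an effector of the GTPase CDC42, went from 66.8 ± 2.72 to 14.2 ± 1.72 CPM (SD, n = 4), and at 26.1 CPM per kb of exon it was the fifth highest of the 61 in vehicle. Arhgap20, a GTPase-activating protein, went from 29.2 ± 1.49 to 6.14 ± 0.482 CPM, and Rhobtb2, a BTB-domain protein, from 25.9 ± 1.12 to 7.24 ± 0.230 CPM (SD, n = 4). The ratios were 4.71, 4.76 and 3.57. Rhpn2 had 4.78, 7.11, 8.82 and 11 CPM with vehicle and 1.03, 1.28, 1.54 and 1.48 CPM with PTH, with vehicle values 2.31-fold apart. Kank1, a regulator of actin at adhesions, the microtubule-binding Mtus1 and the muscle protein Ky had ratios of 4.67, 3.72 and 5.25.

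Signaling inside the cell is the role of 7 members. Irs1, the adaptor of the insulin and IGF-1 receptors, had the highest vehicle level in CPM of the 61, with 149, 152, 143 and 157 CPM with vehicle and 46.3, 46.2, 40.8 and 46.4 CPM with PTH. The ratio of means was 3.35, and PTH sample 3 was the lowest of its group. Rgs3, which turns off G protein signaling, had 84.2, 83.7, 73.6 and 81.1 CPM with vehicle and 16.9, 16.3, 16.1 and 15.1 CPM with PTH. Gprin3, a protein that binds G protein alpha subunits, had 14.3, 14.3, 15.2 and 13.7 CPM with vehicle and 1.25, 1.19, 1.21 and 1.61 CPM with PTH. The samples of a treatment lay close together in both genes apart from PTH sample 4 of Gprin3, and the ratios were 5.01 and 10.9. Gucy1a3, a subunit of the nitric oxide receptor guanylate cyclase, had 5.75, 6.49, 7.96 and 8.94 CPM with vehicle and 1.51, 1.04, 1.24 and 0.660 CPM with PTH, and its locus in the assembly held another symbol as well. Pik3ip1, an inhibitor of PI3 kinase, and Arc, the immediate early gene of neurons, are named after their values were seen and had ratios of 3.39 and 5.28.

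Rnf152, a lysosomal ubiquitin ligase that restrains mTORC1, had the deepest fall of all 61. Its vehicle samples had 136, 200, 136 and 164 counts and its PTH samples 12, 8, 4 and 15 counts, which is 3.15, 4.81, 2.92 and 3.51 CPM with vehicle and 0.214, 0.238, 0.101 and 0.341 CPM with PTH. The ratio of means was 16.1, the fitted log2 fold change was -3.85 ± 0.33 (SE), and the PTH samples spanned 3.37-fold at these few counts. Of 23 tested ubiquitin ligases of the RNF and related families, 7 were lower, Rnf152 included, and 7 higher, with a median log2 fold change of 0.02. Trim63, the muscle ligase MuRF1, fell by 3.29 ± 0.34 and Rnf122 rose by 2.62 ± 0.11 (log2, SE, edgeR, adjusted p = 9.65e-06 and 3.57e-09). The level of Trim63 was low, at 1.63 CPM with vehicle and 0.15 CPM with PTH on average. The other ubiquitin enzymes of the 61, the ligase Trim45 and the deubiquitinase Otud1, had ratios of 4.02 and 3.67 and are named after their values were seen.

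Parp16, an ADP-ribosyltransferase of the endoplasmic reticulum, had 10.2, 9.28, 10.3 and 7.14 CPM with vehicle and 1.78, 1.64, 1.29 and 0.887 CPM with PTH. The uncharacterized gene 9930012K11Rik had 10.4, 9.54, 9.42 and 9.26 CPM with vehicle and 1.5, 1.84, 1.47 and 1.16 CPM with PTH. The ratios of means were 6.6 and 6.48, with vehicle sample 4 and PTH sample 4 the lowest of both genes. RNA-binding proteins are encoded by Pabpc4l, Zc3hav1l and Mex3b, named after their values were seen, and the ratios were 6.45, 5.01 and 3.94. The remaining 9 genes, of no common role, had ratios of 6.01 for Ypel2, 5.73 for Ankrd34a, 5.05 for Tspyl5, 4.92 for Dnajc28, 4.13 for A930004D18Rik, 4.03 for Fam110b, 3.95 for D630003M21Rik, 3.94 for 5930403N24Rik and 3.64 for Pald1.

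No member was found in 8 of the 15 pathway lists looked at. Among 40 tested bone matrix, mineral and osteocyte genes 8 were lower and 5 higher, and among 41 skull patterning factors 14 were lower and 16 higher, and Dlx3, which met the rule and was left out by name, is one of the 14. The 40 genes of S phase and mitosis had 19 lower (47.5%) and 4 higher, with a median log2 fold change of -0.33, and none met the rule. The 32 known PTH and cAMP response genes had 6 lower and 21 higher, with a median of 3.39. Receptor tyrosine kinase genes had 13 of 53 lower and 20 higher, Notch genes 7 of 17 lower and 4 higher, hedgehog genes 4 of 12 lower and 2 higher, and cadherins, protocadherins and integrins 5 of 38 lower and 7 higher. These counts, and those of the lists that hold a member, stand against 22.5% lower and 23.3% higher over all tested genes. Among protein-coding genes with the vehicle counts, between 24.0% and 33.1% were lower and between 20.6% and 32.4% higher, depending on exon number. No list was tested as a set.

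The 61 genes had fewer exons than the genes they were chosen from, a feature that the rule did not use. The annotation classes 59 of them as protein-coding, and their main transcripts had a median of 4 exons, against 9 in the 11618 protein-coding genes with the vehicle counts and 6 in the 244 protein-coding genes that passed the mirror rule. At most 2 exons were found in 17 of the 59 (28.8%) against 6.45%, and at most 3 in 27 (45.8%) against 12.3%. Those with a single exon were Fzd8, Tspyl5 and Otud1. By exon number, the members made up 2.27% of genes with 1 to 2 exons, 0.959% with 3 to 4, 0.425% with 5 to 8, 0.319% with 9 to 15 and 0.107% with 16 or more. The share of genes with a log2 fold change of at most -1 went the same way, at 9.61%, 5.69%, 3.24%, 2.99% and 1.89%, and that of at least 1 was 9.48%, 6.52%, 4.45%, 4.36% and 4.21%. Genes of few exons thus moved by at least 1 on the log2 scale more often in both directions, and the share called lower at any size, 33.1%, 24.0%, 27.1%, 30.8% and 31.5%, showed no such order.

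**Figure D4:**
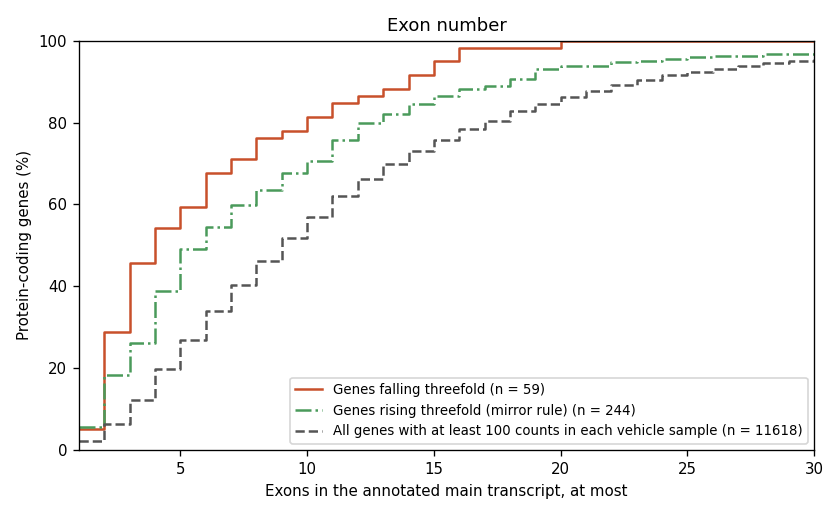
Cumulative share (y axis, percent) of protein-coding genes whose main annotated transcript has at most the number of exons on the x axis, for the chosen genes, the genes that passed the mirror rule and all genes with at least 100 counts in every vehicle sample. The curve of the chosen genes lies above the other curves from 2 exons on, at 28.8% with at most 2 exons against 6.45% of all genes.

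Transcript length and base composition differed less. The main transcripts of the 59 had a median of 3910 bases against 3142 and a median GC content of 52.0% against 50.2%, and the 3′ untranslated regions a median of 1459 bases against 1090. The pentamer ATTTA, the core of AU-rich elements that mark unstable mRNAs, occurred 1.53 times per kilobase of that region at the median against 1.36, and 1.59 times in the genes that passed the mirror rule. Of the 59, 25 (42.4%) held at least 3 copies against 37.4%. The highest numbers of copies were 24 in Rnf152, 18 in Pabpc4l and 17 each in Lpar4 and Gprin3.

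The genes lay on 17 chromosomes. Chromosome 14 held 7 of them (11.5%, against 3.42% of the genes they were chosen from), namely Bmp4, Ajuba, Trac, Il17rd, Slitrk6, Rhobtb2 and 9930012K11Rik. In 4 places, neighbouring members lay within 1 Mb of each other. Srl and Tfap4 lie 2.85 kb apart on the minus strand of chromosome 16 (chr16:4480216-4541816 and chr16:4544661-4559854) with no coding gene between them, and their ratios of means were 4.17 and 5.28. Trac and Ajuba are 343 kb apart with 9 tested genes between them, of which 3 were lower and 1 higher. Rhobtb2 and 9930012K11Rik are 349 kb apart with 3 tested genes between, 2 of them lower, and Arc and Zfp41 are 944 kb apart with 9 tested genes between, 2 lower and 2 higher.

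Within a treatment, the vehicle samples were about as even as in other genes and the PTH samples less so. The coefficient of variation over 4 samples had a median of 7.20% with vehicle, against 7.12% over the 12423 genes, and of 13.9% with PTH, against 9.99%. Of the 61, 19 had under 100 counts in every PTH sample, and the part of counting error in the wider spread was not tested. A range over 1.5-fold between samples was found in 5 members with vehicle, namely Abi3, Rhpn2, Rcor2, Rnf152 and Gucy1a3, where 7.71% of the 12423 genes had one, and in 20 with PTH, where 19.3% had one. Vehicle sample 4 was the lowest of its group in 29 of the 61, and sample 2 in 5. How often each was the lowest over the 12423 genes was not counted. Vehicle sample 4 was the highest of its group in 10 of the 61, and in 31.9% of the 12423 genes. The sum over the 61 in that sample, 1943 CPM, was nevertheless close to the others.

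Some of the 61 share sequence with other genes, which bears on how far their counts can be trusted. At least 100 bases of exon lie opposite an exon of another gene on the other strand in 9 of them, against 24.5% of the genes they were chosen from, and the strand setting of the counting is not given in the sources used here. The overlap is 2822 bases for Irs1 with Gm9747, which had 0 counts in every sample, 1233 bases for Fzd5 with Gm38058 and 665 bases for Ctgf with Gm15270. Gm38058 and Gm15270 had at most 33 and 31 counts in any sample, so little was assigned to them. A stretch of at least 150 bases with at least 95% identity in another gene was found for 10 members, and for 8 of them the genes found included the overlapping partner.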

How the data were processed

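RNA was sequenced from 4 PTH-treated and 4 vehicle-treated calvarial osteoblast cultures, as read pairs of 150 bases from poly(A)-enriched libraries. Per the study's methods, reads were aligned to GRCm38 with HISAT2, sorted with SAMtools and assembled with StringTie2. The authors deposited whole-number counts for 47706 genes and 8 samples, made by the companion script of StringTie2 from transcript coverage and not normalized between samples. Tool versions, the annotation and the strand setting are not given in the sources used here. The authors compared the treatments with DESeq2.

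The rule was applied to CPM (counts divided by the column total), with no test. The fit across all genes used edgeR 4.0.16 (TMM, filterByExpr keeping genes by a count of 10 per sample and 15 in all, quasi-likelihood F-test, two-sided) in R 4.3.3 on the deposited counts, with Benjamini-Hochberg adjustment over 16736 genes and a threshold of 0.05. It was tested on simulated data first. Totals of 33605610 to 56090654 counts leave the least precision in genes with few PTH counts, down to 4. Entries without a symbol (2) held at most 0.00526% of a library. Positions, exons and overlaps came from GENCODE M21 (GRCm38), overlaps from bedtools 2.31.1, similar sequence from blastn 2.17.0, and promoter windows from RefSeq. The position, exon number and main transcript of a gene are those of the annotation, not of the authors' assembly. Python 3.11.15 with NumPy 2.4.6, pandas 2.3.3 and matplotlib 3.10.9 (figures) was used for the rest.

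The members and all lists were chosen with earlier results of these data known, and roles were given to members after their values were seen. Named with values are the 12 members with the lowest ratio of mean PTH to mean vehicle CPM, the 8 with the highest vehicle mean, every member on a list, the 3 genes on either side of the threshold, Tnfsf11, and of each list with a member the other genes with the largest change each way. Further members, the T cell genes and the overlap partners such as Phospho1 were named after their values were seen. Alternatives were TMM-scaled CPM, other count minimums and thresholds, means in place of extremes, sums by symbol, DESeq2 1.42.0, its size factors, no filter, halved counts, a minimum fold change, the sample number as a block and leaving out each sample in turn. The sequencing reads and the authors' measurements in mice were not analysed here.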

Additional observations from a re-analysis of the deposited data

Results flagged for a closer look

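In 9 of the 122 groups of 4 samples (61 genes, 2 treatments), 1 sample lay far from the other 3, with a gap to its neighbour above Dixon's critical value of 0.829 of the group's range. Chance flags about 1 in 20 groups. Sample 4 of a treatment was the one apart in 7 of the 9. How often sample 4 lay apart in other genes was not counted, so this may be a trait of the libraries. With PTH, sample 4 was high for Gprin3 at 1.61 CPM against 1.19 to 1.25 CPM in the others, for Tfap4 at 0.842 CPM against 0.655 to 0.66 CPM, and for Fzd5 at 25.9 CPM against 19.3 to 19.8 CPM. With vehicle, sample 4 was low for Pabpc4l at 10.6 CPM against 11.9 to 12 CPM, for Ephb3 at 100 CPM against 114 to 117 CPM and for Agtr1b at 6.54 CPM against 7.27 to 7.3 CPM, and high for Pald1 at 25.5 CPM against 21.1 to 21.2 CPM. Vehicle sample 1 was low for Fzd5 at 89.6 CPM against 102 to 103 CPM, and PTH sample 3 was low for Irs1 at 40.8 CPM against 46.2 to 46.4 CPM. The 2 treatments stayed apart in all of them, as the rule requires.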

How the results depend on the processing

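The number of genes meeting the rule was 61, and it was 42 with TMM-scaled CPM, 71 and 53 with minimums of 50 and 200 counts, and 61 with counts summed by symbol. It moved to 238 with a threshold of 1/2, to 20 with 1/4, and to 136 with the mean PTH level set against the mean vehicle level, which drops the demand on every sample. Without 1 replicate it was between 64 and 76, and the 61 were among them each time, as leaving out a sample can only loosen the rule. The number of genes called lower was 3762, between 3259 and 3955 without 1 replicate, 3784 with DESeq2, 3638 with its size factors, 3758 with no filter, 3696 with halved counts and 650 with a log2 fold change of at most -1. In 793 refits of single members under the alternatives to the edgeR fit, every one kept its direction and its side of the adjusted p threshold of 0.05. The refits did not apply the rule itself. The members were chosen for a wide gap in these same samples, so neither these refits nor the block fit below could test them. Same-numbered samples showed no shared shift: the correlations between them, after the mean of each treatment was taken off, were -0.04, -0.03, -0.04 and 0.03. The labels do not say whether these samples were paired. With the number as a block, 3432 genes were called lower, all 61 among them, and 73 genes met the rule pair by pair. Few PTH counts limit the fold of the deepest falls, such as that of Rnf152, which ran from -4.13 to -3.62 on the log2 scale without 1 replicate.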
